A study of Homo sapiens with 4 samples.

Results

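The forkhead (FOX) family is a group of transcription factors that share a winged-helix DNA-binding domain and are named by lettered subfamilies. The 38 members described here were chosen by name, as the rows of the count table whose symbol is one of 38 listed FOX genes, and all 38 were found among the 35606 genes of that table. The transcriptome of K562 cells labelled as expressing JAZF1-SUZ12 was compared with that of mock cells, with 2 RNA-seq libraries in each group, numbered 1 and 2. All 4 libraries come from K562, an established line grown from a chronic myelogenous leukaemia, whose cells make embryonic and fetal globins. JAZF1-SUZ12 is the fusion of endometrial stromal sarcoma that joins JAZF1 to SUZ12, a core subunit of Polycomb repressive complex 2 (PRC2). How the fusion was introduced, and what the mock cells received, are not given in the sources used here. Nothing in the labels says that the libraries of a group came from separate cultures, so the p-values measure the spread between these libraries, which may be technical.

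As background, many FOX genes are developmental regulators that are switched on in particular tissues and are textbook targets of PRC2, which places a repressive mark on histone H3, often at CpG-rich promoters. Others are broadly expressed. FOXO proteins, for example, are held in the cytoplasm when AKT phosphorylates them and activate genes of cell cycle arrest, stress defence and insulin signalling when AKT is low. In blood cells FOXO3 is known for its part in red cell maturation and in the response to oxidative stress, and FOXM1 is known for driving genes of mitosis. From such knowledge, and with earlier results of these data known, the members were divided into 26 tissue-restricted and 12 broadly expressed genes.

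The libraries held between 17260936 and 24423028 estimated counts. SUZ12 was at 2781 and 2798 counts in mock and at 4754 and 6582 with the fusion. JAZF1 was at 12 and 27 counts in the mock libraries and at 574 and 731 in the JAZF1-SUZ12 libraries. The source label names uterus, but erythroid globins were abundant in all 4 libraries, with HBG2 between 68543 and 95988 counts. Of 10 erythroid markers, HBZ, ALAS2, HBE1 and HBG1 rose, by 0.86, 0.68, 0.24 and 0.21 on the log2 scale, and 0 fell (edgeR; DESeq2 called 5 higher and 0 lower, and at an unadjusted p under 0.05 edgeR gave 5 and 0). The 10 summed to 10224 and 9999 CPM (counts per 1000000 counts of the library) in mock and to 11789 and 11640 CPM with the fusion. Of 9 stromal markers, LUM was at 0 and COL3A1 at no more than 3 counts in every library. The 9 summed to 15.0 and 14.4 CPM in mock and to 32.2 and 33.3 CPM in JAZF1-SUZ12 libraries. COL1A1 made up most of the difference, since the other 8 summed to 9.83 and 8.03 CPM in mock and to 10.8 and 12.0 CPM with the fusion. The part of these genes in the results below was not tested.

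Of the 38 members, 21 had enough counts to be tested, 12 of 12 broadly expressed and 9 of 26 tissue-restricted. FOXD1, FOXN3, FOXO3 and FOXO4 rose and no member fell (edgeR's quasi-likelihood test, with p-values adjusted by Benjamini-Hochberg over all 14750 genes tested and called under 0.05). The 4 raised members were 19.0% of the 21 tested, whereas 13.3% of all genes tested were called higher. For the lower direction the count was 0 of 21, beside 11.4% of all genes tested. At 2-fold or more, FOXD1 and FOXN3 were 2 of the 21, beside 5.55% of all genes tested. DESeq2 called 3 members higher and 0 lower, beside 9.19% and 7.13% of all genes, and at an unadjusted p under 0.05 edgeR gave 5 higher and 1 lower, beside 18.4% and 17.6% of all genes. The authors' deposited table called FOXD1 and FOXO3 higher and 0 members lower, beside 4.93% and 3.57% of its genes with an adjusted p. Both JAZF1-SUZ12 libraries lay above both mock libraries in 10 of the 21 and below both in 3, beside 33.8% and 27.2% of all genes tested. A set of 21 genes is small for reading shares, and no test of the family as a group was made. In bulk RNA, more cells with a transcript and more of it per cell cannot be told apart.

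The promoters of the 4 raised members are shown first, beside those of FOXN1 and FOXQ1, which were at 0 counts in every library. Each line gives the 150 bases just before the first listed transcription start, 5′ to 3′ on the gene's strand, from RefSeq on GRCh38.p14. Capitals mark CpG dinucleotides, which are frequent in the CpG islands of promoters.
FOXD1, chr5:73448778-73448927, minus strand: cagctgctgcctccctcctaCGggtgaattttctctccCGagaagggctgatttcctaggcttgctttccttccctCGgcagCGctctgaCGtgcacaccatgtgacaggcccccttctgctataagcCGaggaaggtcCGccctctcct
FOXN3, chr14:89619166-89619315, minus strand: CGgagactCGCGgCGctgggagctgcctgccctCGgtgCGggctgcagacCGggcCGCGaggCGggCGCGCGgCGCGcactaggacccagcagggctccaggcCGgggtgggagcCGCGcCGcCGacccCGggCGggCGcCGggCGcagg
FOXO3, chr6:108559675-108559824, plus strand: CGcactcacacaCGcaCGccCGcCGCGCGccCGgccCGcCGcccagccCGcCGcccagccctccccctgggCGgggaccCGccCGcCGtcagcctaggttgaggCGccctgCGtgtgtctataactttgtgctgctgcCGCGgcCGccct
FOXO4, chrX:71095701-71095850, plus strand: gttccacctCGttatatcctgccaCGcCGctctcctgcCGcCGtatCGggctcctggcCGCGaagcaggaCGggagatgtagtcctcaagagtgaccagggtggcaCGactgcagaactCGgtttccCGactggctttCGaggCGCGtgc
FOXN1, chr17:28506198-28506347, plus strand: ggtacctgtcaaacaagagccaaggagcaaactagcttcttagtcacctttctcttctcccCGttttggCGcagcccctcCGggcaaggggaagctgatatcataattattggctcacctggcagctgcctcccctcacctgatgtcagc
FOXQ1, chr6:1311948-1312097, plus strand: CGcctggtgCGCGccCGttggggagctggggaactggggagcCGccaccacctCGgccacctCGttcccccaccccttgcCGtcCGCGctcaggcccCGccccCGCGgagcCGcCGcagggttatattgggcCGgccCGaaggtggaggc

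These windows held 7 CpG in FOXD1, 25 in FOXN3, 21 in FOXO3, 15 in FOXO4, 3 in FOXN1 and 17 in FOXQ1. FOXD1, the member that changed most, thus had fewer CpG here than the other raised genes, and silent FOXQ1 had more than FOXO4. The windows of FOXD1, FOXO4 and FOXQ1 end farther before the GENCODE 29 start of the gene than those of FOXN3 and FOXO3. That of FOXN1 runs past its GENCODE start. The windows compared thus lie at unlike distances from these starts. RefSeq promoters, from 250 bases before to 50 after a start, matched 28 of the 38 members. A RefSeq promoter held a median of 14 CpG over all 35116 promoters, 26 over 19 promoters of tissue-restricted members and 39 over 20 promoters of broadly expressed members. The 19 belong to 18 genes and the 20 to 10 genes, so genes with several promoters weigh more in these medians. Taking for each member its promoter richest in CpG, the 17 members tested ranged from 16 to 55, with a median of 34. The 11 not tested ranged from 3 to 40, with a median of 22, and the difference was not tested. The 2 ranges overlapped, and FOXC1 and FOXI3, with 40 and 39 CpG, were among the genes that were not tested. The forkhead core motif GTAAACA, searched on both strands, was found in 1 promoter of FOXO4 and 1 of FOXP1, and in 3.42% of all promoters. These matches are a description of the letters in these windows.

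**Figure D1:**
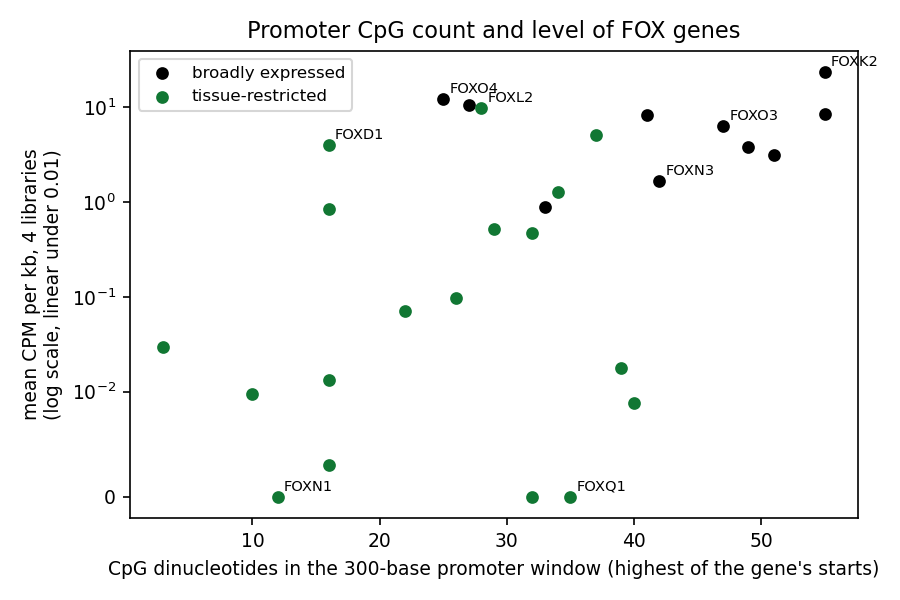
Promoter CpG count against level for the 28 FOX genes with a RefSeq promoter. The x axis gives CpG dinucleotides in the 300-base window richest in CpG and the y axis mean CPM per kilobase over 4 libraries, on a log scale that is linear under 0.01. FOXQ1, at 0, has 35 CpG, whereas FOXD1 has 16.

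FOXD1 is a factor of the developing kidney stroma and retina. The gene (ENSG00000251493, GRCh38 chromosome 5, 73444827 to 73448527, minus strand) was at 3.33 and 2.07 CPM in the mock libraries and at 17.0 and 14.1 CPM in the JAZF1-SUZ12 libraries. Both JAZF1-SUZ12 libraries thus lay far above both mock libraries. The counts behind these values were 68 and 44 in mock and 293 and 345 with the fusion. FOXD1 rose by 2.50 ± 0.20 on the log2 scale (SE; edgeR adjusted p = 2.65e-07), which is 5.67-fold. Leaving out 1 library in turn gave log2 fold changes from 2.19 to 2.87. The authors' deposited table gave 2.53 for FOXD1, with an adjusted p of 3.15e-14. An antisense gene lies inside FOXD1 in GENCODE 29, and use of strand in counting is not stated, so reads of the pair cannot be told apart. COL1A1, a collagen gene among the 9 stromal markers above, also rose. It was at 5.18 and 6.39 CPM in mock and at 21.4 and 21.3 CPM with the fusion. Of those 9 markers 4 were tested, and the other 3, the collagen gene COL1A2 among them, were not called (edgeR). The part of COL1A1 in the rise of FOXD1 was not tested.

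FOXD1 was at 4.37% of the summed CPM of the 26 tissue-restricted members in mock and at 21.6% with the fusion (means of 2 libraries). The summed level of those 26 genes was 61.9 and 61.4 CPM in mock and 74.3 and 69.4 CPM in JAZF1-SUZ12 libraries. Without FOXD1 the sums were 58.5 and 59.3 CPM in mock and 57.3 and 55.3 CPM with the fusion. The remaining 25 tissue-restricted genes thus summed to less in both JAZF1-SUZ12 libraries than in both mock libraries, a difference that was not tested. FOXL2 was the largest part of these sums, at 28.7 and 31.9 CPM in mock and at 29.3 and 25.8 CPM with the fusion. Its groups overlapped and it was not called (edgeR), so the sums do not show a fall across the class.

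FOXN3 is a checkpoint-linked repressor related to FOXN2. FOXN3 (ENSG00000053254, chromosome 14, 89124871 to 89619149, minus strand) was at 8.51 and 8.50 CPM in mock and at 15.9 and 19.4 CPM in JAZF1-SUZ12 libraries. The groups did not overlap, and the mock libraries were almost equal. FOXN3 rose by 1.04 ± 0.13 on the log2 scale (SE; edgeR adjusted p = 3.36e-05). The authors' deposited table gave FOXN3 a smaller change of 0.66 that did not pass (adjusted p = 0.124), and the cause was not tested. FOXN2, its closest relative here, was at 52.0 and 46.3 CPM in mock and at 45.6 and 42.6 CPM with the fusion. The log2 fold change of FOXN2 was -0.18 ± 0.07 (SE), and it was not called (edgeR, adjusted p = 0.0873). FOXN2 was called lower without mock replicate 2 (-0.27, edgeR adjusted p = 0.0207) and without JAZF1-SUZ12 replicate 1 (-0.25, edgeR adjusted p = 0.0257). With the replicate number as a block its adjusted p was 0.041 (edgeR).

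The FOXO genes encode the forkhead factors under AKT control. FOXO3 (ENSG00000118689, chromosome 6, 108559835 to 108684774, plus strand) was at 36.9 and 38.3 CPM in mock and at 54.8 and 57.4 CPM in JAZF1-SUZ12 libraries. It rose by 0.56 ± 0.07 on the log2 scale (SE; edgeR adjusted p = 1.65e-05). The spread within each group was small beside the gap between the groups, with SDs of 0.947 and 1.84 CPM. The authors' deposited table gave 0.54 for FOXO3, with an adjusted p of 0.00086. FOXO3B, a near-identical copy on chromosome 17, takes reads that cannot be assigned with certainty. The 2 rows together were at 46.6 and 46.6 CPM in mock and at 61.9 and 66.5 CPM with the fusion, a ratio of mean CPM of 1.38. The fold of FOXO3 alone was 1.47, but edgeR fitted that value with its own scaling of the libraries. The 2 values are thus not on the same scale.

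FOXO4 (ENSG00000184481, chromosome X, 71096197 to 71103535, plus strand) was at 38.6 and 34.9 CPM in mock and at 44.8 and 42.6 CPM in JAZF1-SUZ12 libraries. The log2 change was 0.23 ± 0.08 (SE; edgeR adjusted p = 0.0379). This small rise passed narrowly: it did not pass with DESeq2 (adjusted p = 0.17), without mock replicate 2 (0.14, edgeR adjusted p = 0.294) or without JAZF1-SUZ12 replicate 1 (0.17, edgeR adjusted p = 0.166). The authors' deposited table did not call FOXO4, with an adjusted p of 0.852. FOXO1, which shares target genes with FOXO3, was at 3.52 and 5.26 CPM in mock and at 5.85 and 5.86 CPM with the fusion. The log2 fold change of FOXO1 was 0.39 ± 0.22 (SE) and it was not called (edgeR, adjusted p = 0.221). Its value rested on which mock library was used: 0.70 and called without mock replicate 2 (edgeR, adjusted p = 0.0455), but 0.12 and not called without mock replicate 1 (edgeR, adjusted p = 0.782).

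**Figure D2:**
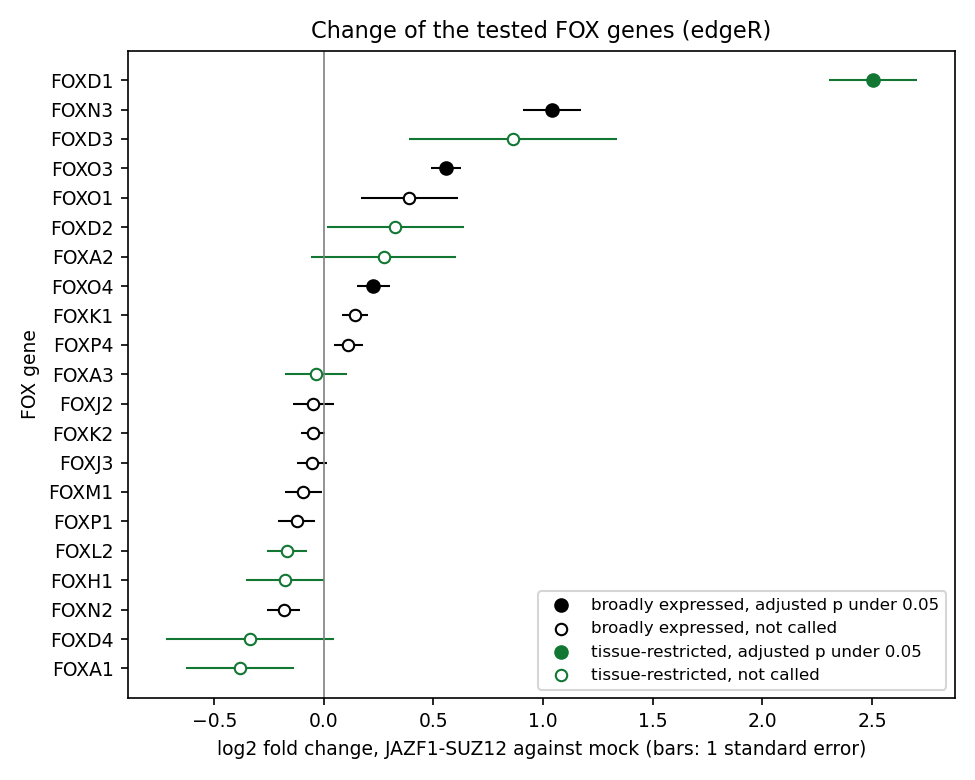
Log2 fold change of the 21 tested FOX genes, JAZF1-SUZ12 against mock, with bars of 1 standard error from edgeR. Filled points passed an adjusted p of 0.05: FOXD1 at 2.50, FOXN3 at 1.04, FOXO3 at 0.56 and FOXO4 at 0.23.

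The other 8 tested tissue-restricted members were not called, 3 with a positive and 5 with a negative log2 fold change. FOXD3, a neural crest factor and the member with the largest uncalled change, was at 0.538 and 0.986 CPM in mock and at 1.22 and 1.60 CPM with the fusion. The log2 change was 0.86 ± 0.47 (SE; edgeR adjusted p = 0.206), and it became 1.35 if mock replicate 2 was left out and 0.49 if mock replicate 1 was. FOXD2 was at 37 and 45 counts in mock and at 40 and 65 with the fusion, and its log2 fold change was 0.33 ± 0.31 (SE). FOXD4, which has 5 near-identical copies in the table, was at 28 and 50 counts in mock and at 23 and 40 with the fusion. Its log2 fold change was -0.34, and it was 0.093 without mock replicate 2. FOXD4 and its 5 copies together were at 71 and 90 counts in mock and at 50 and 96 with the fusion. The ratio of their mean CPM, fusion over mock, was 0.887. Of the D subfamily only FOXD1 passed the test, and whether its change differed from those of FOXD2, FOXD3 and FOXD4 was not tested.

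The A subfamily holds the pioneer factors of liver and other endoderm, which open closed chromatin. FOXA1 was at 4.70 and 3.52 CPM in mock and at 3.01 and 3.36 CPM with the fusion (log2 -0.38, standard error 0.25). FOXA2 was at 1.81 and 1.69 CPM in mock and at 2.03 and 2.25 CPM with the fusion (0.27, standard error 0.33). FOXA3, the most abundant of the 3, was at 10.5 and 9.81 CPM in mock and at 9.91 and 10.2 CPM with the fusion. Its groups overlapped and its log2 fold change was -0.04 ± 0.14. (SE) None of the 3 was called (edgeR, adjusted p = 0.289, 0.601 and 0.883).

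FOXL2, the ovarian granulosa cell factor, stood out by its level in a leukaemia line. It was at 28.7 and 31.9 CPM in mock and at 29.3 and 25.8 CPM in JAZF1-SUZ12 libraries, and the groups overlapped. The log2 change was -0.17 ± 0.09 (SE; edgeR adjusted p = 0.206), and it was called only without JAZF1-SUZ12 replicate 1, among the settings tried (-0.27, edgeR adjusted p = 0.0467). FOXL2NB, the gene that starts beside FOXL2 on the opposite strand, was at 16.1 and 15.1 CPM in mock and at 15.1 and 16.3 CPM with the fusion. FOXH1, which carries SMAD proteins to nodal-responsive genes, was at 170 and 138 counts in mock and at 117 and 159 with the fusion, and was not called (edgeR, adjusted p = 0.519).

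Levels were compared between genes as CPM per kilobase of the longest GENCODE transcript, a measure of level and not of change. FOXK2 was highest, at a mean of 23.7 over the 4 libraries and between 23.0 and 24.8 in each. FOXM1 followed at 16.8 (15.4 to 18.7), and its range did not meet that of FOXK2. FOXO4 came next at 12.2 (10.6 to 13.6) and then FOXP4 at 10.7 (9.70 to 11.4), and these ranges overlapped. FOXL2 followed at 9.92 (8.84 to 10.9), overlapping FOXP4 above it and FOXN2 below it at 8.62 (7.87 to 9.62). FOXN2, FOXK1 and FOXJ3 followed at 8.62, 8.44 and 8.34, with ranges that overlapped. Of the 10 highest members, 8 were broadly expressed ones and the other 2 were FOXL2 and FOXA3. The lowest tested members were FOXD3 and FOXD2, at 0.52 and 0.476. FOXD1 crossed other members between groups, from 1.46 and 0.909 in mock to 7.47 and 6.22 per kilobase in JAZF1-SUZ12 libraries. There it lay above FOXA3, which was between 4.93 and 5.26 in all libraries.

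**Figure D3:**
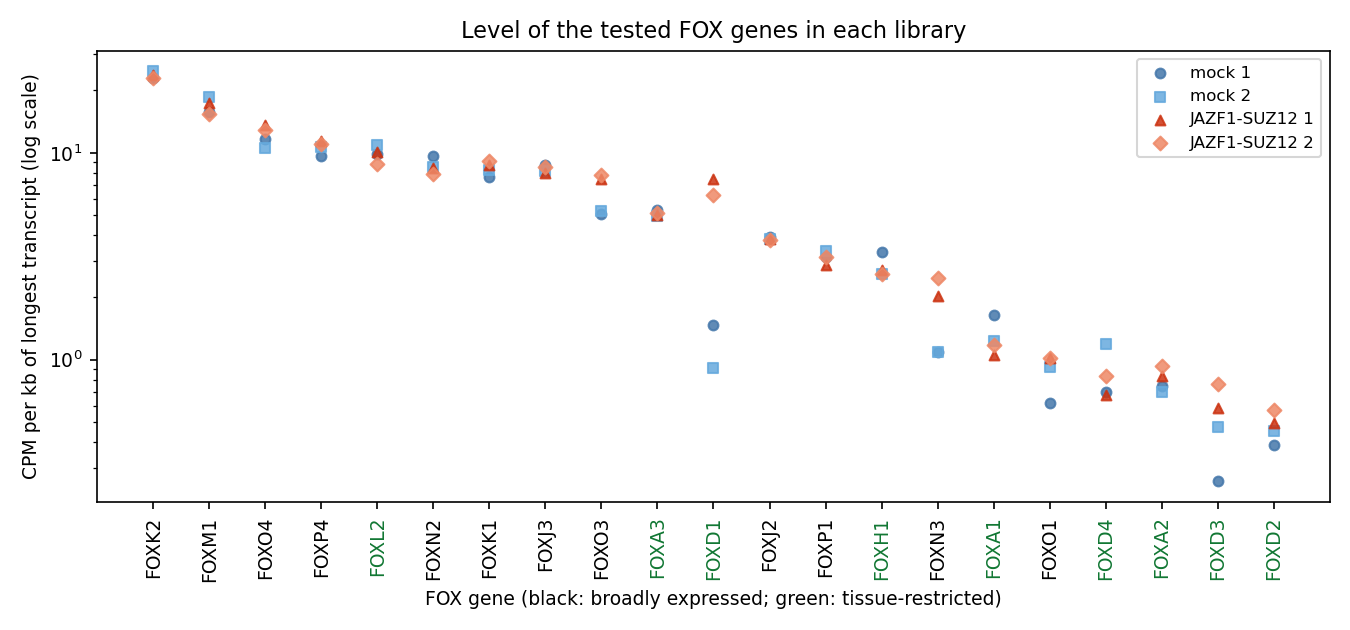
Level of the 21 tested FOX genes in each of the 4 libraries, as CPM per kilobase of the longest transcript on a log axis, ordered by the mean. FOXK2 is highest at 23.7 on average, and FOXD1 is the gene whose 2 pairs of points lie farthest apart.

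Of the 12 broadly expressed members, 9 were not called. FOXK2, a repressor that binds the deubiquitinase BAP1, was at 121 and 130 CPM in mock and at 125 and 122 CPM with the fusion, and the groups overlapped. The log2 change was -0.05 ± 0.06 (SE; edgeR adjusted p = 0.559). FOXK1 was at 85.5 and 92.6 CPM in mock and at 97.2 and 102 CPM with the fusion. Its log2 fold change of 0.14 (standard error 0.06) was not called (edgeR, adjusted p = 0.0895). It passed once the fit was limited to genes averaging 50 counts or more (edgeR, adjusted p = 0.0395). The authors' deposited table gave FOXK1 a log2 fold change of -0.05, with an adjusted p of 0.883. FOXP4 was at 57.7 and 63.6 CPM in mock and at 67.8 and 65.3 CPM with the fusion (0.11, standard error 0.07). FOXP1, which has a role in B cell development, was at 28.1 and 30.1 CPM in mock and at 25.9 and 28.3 CPM with the fusion (-0.12, standard error 0.08). FOXJ2 and FOXJ3 had log2 fold changes of -0.05 and -0.05, with standard errors of 0.09 and 0.07.

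FOXM1 was at 54.8 and 65.0 CPM in mock and at 60.8 and 53.7 CPM with the fusion. The groups overlapped and replicates differed by more than the groups did, so that the log2 fold change of -0.09 (standard error 0.08) became 0.026 without mock replicate 2 and 0.011 without JAZF1-SUZ12 replicate 2. Over the 12 broadly expressed members the median log2 fold change was 0.032, beside 0.0032 over all genes tested, with 6 positive. Over the 9 tested tissue-restricted members it was -0.036, with 4 positive. The 12 broadly expressed genes summed to 555 and 580 CPM in mock and to 608 and 605 CPM with the fusion.

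The remaining 17 members, all tissue-restricted, had too few counts to test. Of these, 13 had at most 3 counts in every library, and FOXE1, FOXN1 and FOXQ1 had 0 in all 4. A count of 0 allows up to 3 counts, or between 0.123 and 0.174 CPM depending on the library, and this limit covers counting error only. The other 4 of the 17 were FOXF2, FOXL1, FOXP2 and FOXR1. FOXF2, a mesenchyme factor, had 2 and 1 counts in mock and 4 and 14 with the fusion, and most of its counts came from JAZF1-SUZ12 replicate 2. The ratio of its summed counts per library size was 6.01, with an exact 95% interval for counting error only of 1.75 to 31.8. FOXF2 was named for these same counts, above 3 in both JAZF1-SUZ12 libraries and at most 3 in both mock libraries. The ratio and its interval carry that choice and cannot serve as support for a rise, and FOXF2 was not tested across libraries. FOXL1 had 0 and 1 counts in mock and 7 and 2 with the fusion. FOXR1 had 4 and 2 counts in mock and 0 and 1 with the fusion. FOXP2, a factor known for speech circuits, had 6 and 2 in mock and 6 and 6 with the fusion. Together the 17 members had 17 and 10 counts in mock and 24 and 32 with the fusion, and the largest single value was the 14 counts of FOXF2. At this depth small changes in these genes were not detectable.

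**Figure D4:**
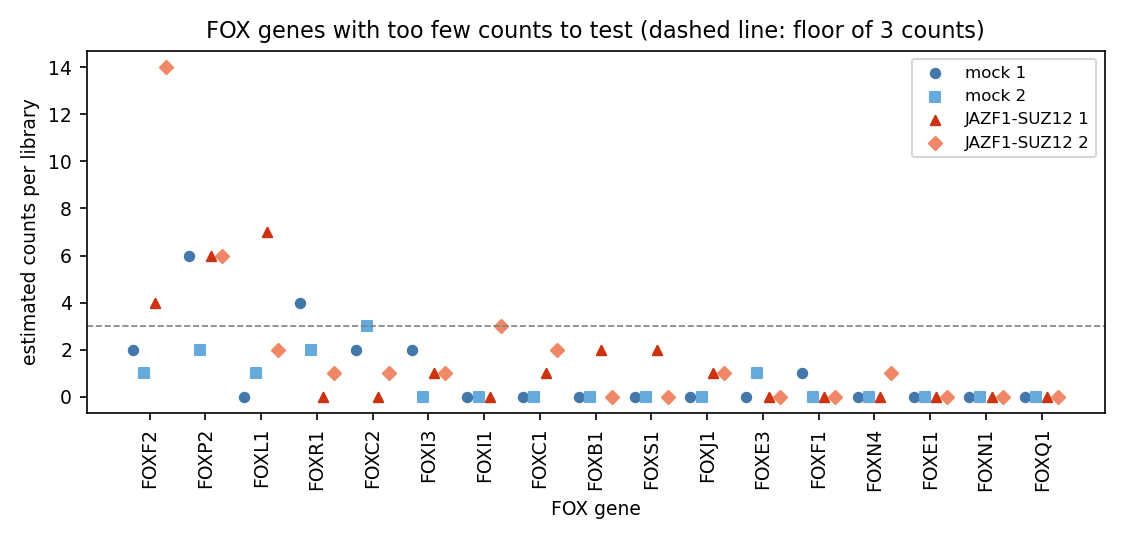
Estimated counts in each library for the 17 FOX genes that had too few to test. The dashed line marks 3 counts, and only FOXF2, FOXP2, FOXL1 and FOXR1 have a library above it, with FOXF2 reaching 14.

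Some members sit in clusters on the genome. On chromosome 16, FOXF1, FOXC2 and FOXL1 lie in a row with gaps of 51.4 and 6.64 kb, and none of them had enough counts to test. On chromosome 6, FOXQ1, FOXF2 and FOXC1 lie with gaps of 74.8 and 214 kb, and none of these did either. On chromosome 1, FOXE3 and FOXD2 are 18.0 kb apart, yet FOXE3 had a single count over the 4 libraries whereas FOXD2 had between 37 and 65 in each. The 4 raised members lie on 4 different chromosomes. Of the 16 tested genes nearest to them, 2 on each side, ANKRA2 beside FOXD1 was called higher and 4 were called lower (6.25% and 25%, beside 13.3% and 11.4% of all genes tested). BTF3, the nearest tested gene to FOXD1, was at 0.055 on the log2 scale and not called (edgeR adjusted p = 0.405). Beyond FOXO4, CXorf65 at 0.354 kb and IL2RG at 3.87 kb were at 0.48 and 0.0038, and neither was called (edgeR adjusted p = 0.587 and 0.984). CXorf65 had few counts, 7 and 20 in mock and 16 and 22 with the fusion. SNX12, 22.8 kb from FOXO4 on the other side, was among the 4 called lower (-0.22, edgeR adjusted p = 0.033).

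Genes that act with or under forkhead factors were then read from the same fit. The lists were chosen with earlier results of these data known, so the shares below are not independent of these data. Of 20 genes known as FOXO targets, 8 rose and 0 fell, 40.0% beside 13.3% and 11.4% of all genes tested. DESeq2 called 7 higher and 0 lower, and at an unadjusted p under 0.05 edgeR gave 13 higher and 0 lower, beside 18.4% and 17.6% of all genes. The authors' deposited table called 5 of the 20, beside 4.93% of its genes higher and 3.57% lower. The median log2 fold change of the 20 was 0.30, beside 0.0032 over all genes tested, and 17 of 20 were positive. These genes have many other regulators, and the share of FOXO proteins in their change was not tested. The erythroid markers that rose alongside FOXO3 and these targets are given above, and their part was not tested.

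CDKN1A, the p21 inhibitor of cyclin-dependent kinases, was at 35.0 and 31.6 CPM in mock and at 64.2 and 58.8 CPM with the fusion (log2 0.86; edgeR adjusted p = 5.85e-07). SESN3, a stress-induced inhibitor of mTORC1 signalling, was at 13.5 and 11.5 CPM in mock and at 25.0 and 21.1 CPM with the fusion (0.86; edgeR adjusted p = 9.55e-05). BNIP3, a mitophagy receptor, was at 121 and 130 CPM in mock and at 174 and 178 CPM with the fusion (0.46; edgeR adjusted p = 9.79e-06). INSR, the insulin receptor, was at 4.26 and 9.02 CPM in mock and at 22.9 and 25.1 CPM with the fusion. In all 4 genes both JAZF1-SUZ12 libraries lay above both mock libraries. The log2 fold change of INSR was 1.83 (edgeR, adjusted p = 8.07e-06), but the mock libraries differed. The fit gave 2.46 against mock replicate 1 alone and 1.38 against mock replicate 2 alone. The authors' deposited table gave INSR a smaller change of 0.98, with an adjusted p of 0.00317. The 12 targets not called had log2 fold changes from -0.064 (SOD2) to 1.10 (TRIM63). Among them were CDKN1B, TXNIP and CAT, at -0.0069, 0.12 and 0.028. The rise was thus not shared by all 20 genes, although a gene that was not called may also have risen.

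Of 19 genes that control FOXO proteins, 2 rose and 2 fell, or 10.5% in each direction, near the 13.3% and 11.4% of all genes tested. Their median log2 fold change was -0.058. SGK1, a kinase that inactivates FOXO proteins, rose: it was at 4.50 and 4.37 CPM in mock and at 9.62 and 9.83 CPM with the fusion (log2 1.11; edgeR adjusted p = 0.000184). In the authors' deposited table SGK1 was at 0.78 and was not called, with an adjusted p of 0.132. AKT1 and AKT2, kinases with the same role, had log2 fold changes of -0.042 and -0.085 and were not called. XPO1, the nuclear export receptor, fell by 0.15 and YWHAG, a 14-3-3 protein, by 0.14 on the log2 scale (edgeR, adjusted p = 0.0134 and 0.0218). XPO1 was not called without mock replicate 1 (edgeR, adjusted p = 0.0585), and YWHAG was not called without mock replicate 2 (edgeR, adjusted p = 0.0697). The number falling lay between 1 and 4 when 1 library was left out.

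Of 18 genes known as FOXM1 targets, 5 fell and 0 rose, 27.8% and 0% beside 11.4% and 13.3% of all genes tested. DESeq2 called 3 lower and 0 higher. An unadjusted p under 0.05 was reached by 5 lower and 0 higher (edgeR), beside 17.6% and 18.4% of all genes. The authors' deposited table called 1 of the 18, CENPF, and did not call AURKA (-0.14, with an adjusted p of 0.455). AURKA, a mitotic kinase, was at 107 and 108 CPM in mock and at 88.7 and 91.2 CPM with the fusion (log2 -0.27; edgeR adjusted p = 0.00149). CDC20, an activator of the anaphase-promoting complex, was at 103 and 102 CPM in mock and at 89.5 and 88.6 CPM with the fusion (-0.23; edgeR adjusted p = 0.00557). CENPF and BIRC5 fell by 0.13 and 0.14 on the log2 scale, with adjusted p-values of 0.0388 and 0.0458 (edgeR). All of the 5 changes were small, and the count became 2 without JAZF1-SUZ12 replicate 2, 2 without mock replicate 1, 3 without mock replicate 2, and 2 both with total counts in place of TMM scaling and over genes with a mean of at least 50 counts.

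Smaller sets of partners were mostly not called. Of 8 partners of FOXK1 and FOXK2 in the BAP1 complex, HCFC1 fell by 0.17 on the log2 scale (edgeR, adjusted p = 0.0296) and 0 rose (DESeq2 gave 0 higher, and edgeR 1 at an unadjusted p under 0.05). The 1 of 8 that fell is 12.5%, near the 11.4% of all genes tested. HCFC1 was not called without mock replicate 2 (edgeR, adjusted p = 0.278) or without JAZF1-SUZ12 replicate 2 (edgeR, adjusted p = 0.058). Of 6 Groucho corepressors, which bind several FOX proteins, 5 were tested and TLE2 rose, from 27.3 and 29.9 CPM in mock to 43.0 and 44.7 CPM with the fusion (log2 0.60; edgeR adjusted p = 3.04e-05). The 1 of 5 that rose is 20%, beside 13.3% of all genes tested. In the nodal pathway that uses FOXH1, 5 of 11 genes were tested and 0 were called by edgeR or DESeq2, with 1 at an unadjusted p under 0.05. Its ligands NODAL and GDF3 had at most 2 counts in any library, while SMAD2, SMAD3 and SMAD4 were expressed, with log2 fold changes of -0.092, -0.077 and 0.012.

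**Figure D5:**
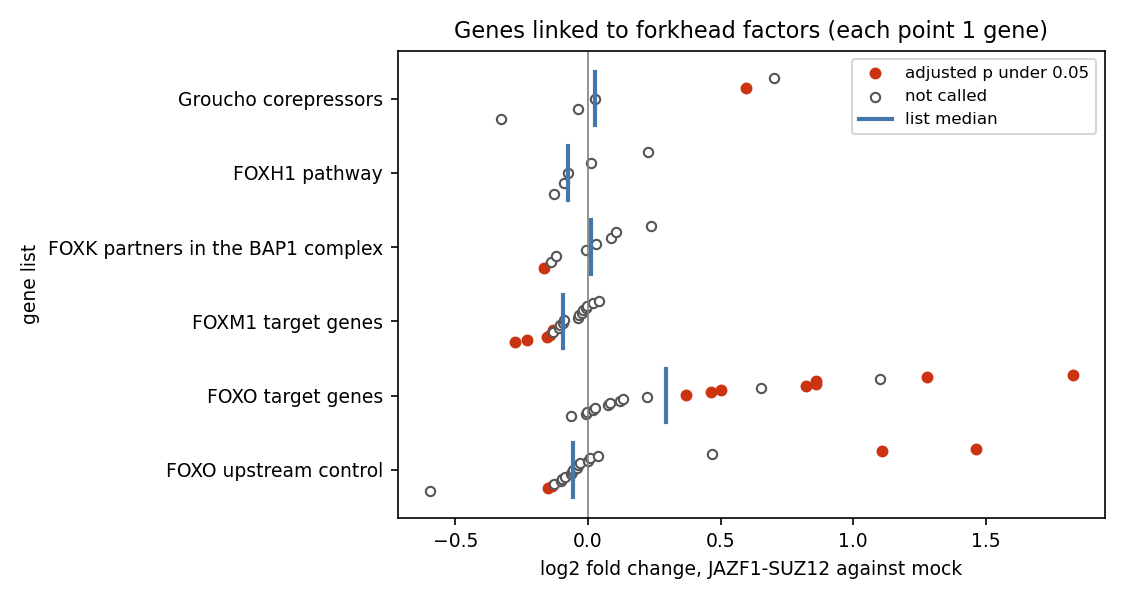
Log2 fold change of each tested gene in 6 lists linked to forkhead factors, with filled points for an adjusted p under 0.05 (edgeR) and a bar at the list's median. The FOXO targets lie mostly to the right of 0, with a median of 0.30, and the FOXM1 targets mostly to the left, with a median of -0.092.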

How the data were processed

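Poly(A)-selected directional RNA-seq libraries of K562 cells were analysed, 2 labelled JAZF1-SUZ12 and 2 mock. The authors deposited estimated counts per gene, not normalized. The submitters' processing notes name kallisto 0.46.2, fastp 0.20.1, DESeq2 1.30.1 and hg38, and the annotation is not given in the sources used here. Per the file headers, a second table by the authors holds DESeq2 columns: a mean signal, a log2 fold change, a score (the test statistic) and p-values, whose adjusted form 5356 of its 21251 genes lack.

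Counts were rounded to whole numbers. Genes were kept with filterByExpr (14750), scaled with TMM and tested by edgeR 4.0.16 in R 4.3.3, two-sided, with group as the only term and adjustment over all genes tested. Standard errors are the log2 fold change divided by the root of F. CPM divides a rounded count by the library total and multiplies by 1000000. Positions and transcript lengths are from GENCODE 29 on GRCh38, and promoters from RefSeq. The fit was tested on simulated data.

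The members, classes and lists were chosen with earlier results of these data known. Genes named in full are JAZF1 and SUZ12 as a check of the labels, members called, the 5 highest members, members above 3 counts in both libraries of 1 group and at most 3 in the other, and up to 4 called genes per direction in each list. Other members and genes, and the neighbours of raised members, were added after their values were seen. Of 13 genes listed as lying beside FOX genes, the 12 other than FOXL2NB were not analysed here. The values of 1 listed gene are not reported here. Alternatives were other scalings, DESeq2 1.42.0, limma-voom (limma 3.58.1), other filters, the replicate number as a block and leaving out each library.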

Additional observations from a re-analysis of the deposited data

How the results depend on the processing

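FOXD1, FOXN3 and FOXO3 were called higher in all 11 alternative fits, and no called member changed direction. The 4 members called higher numbered 3 to 4 and those called lower 0 to 2 when 1 library was left out, where the lone library of a group is assumed to vary like the other group. With the replicate number as a block, 1 member, FOXN2, was called lower and 4061 genes in all. Same-numbered libraries did not deviate together (correlation -0.00072 over 14750 genes). With 2 libraries per group this cannot show whether they shared a culture or a day, and the labels give only the number. Over all genes, 3643 were called with edgeR, 2407 with DESeq2 and from 2568 to 3782 without 1 library, and the cause for DESeq2 was not tested. The median log2 fold change of tested tissue-restricted members was -0.14 over those with a mean of at least 50 counts, which leaves fewer genes, and -0.042 to 0.093 without 1 library. That of broadly expressed members was 0.011 to 0.084. Uncalled FOXA3 and FOXH1 turned from -0.04 to 0.00049 and from -0.18 to 0.0024 without mock replicate 1. With 2 libraries per group, precision is limited by their number. For the 17 members not tested, it is limited by depth.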

Other observations

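Outside the 38 members the table holds further forkhead rows, and FOXO6 was chosen from them after its values were seen. FOXO6, the FOXO gene best known from brain, was at 14 and 23 counts in mock and at 126 and 134 counts in JAZF1-SUZ12 libraries, or at 0.685 and 1.08 CPM against 7.30 and 5.49 CPM. Both JAZF1-SUZ12 libraries lay above both mock libraries. The log2 change was 2.81 ± 0.30 (SE; edgeR adjusted p = 5.89e-06), and the authors' deposited table gave 2.87.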
